A study of Mus musculus with 6 samples.

Results

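This section follows Lars2 and 4 transcripts listed as ribosomal RNA-like, Gm15564, Gm42418, AY036118 and Gm26917, through 6 single-cell RNA sequencing libraries from mice. The 5 members were chosen by name, as Lars2 and transcripts known to collect ribosomal RNA reads, and make up 5 of the 31053 genes that the matrices share. Lars2 was put on the list with results of these data in view, so its differences between libraries are given as a description. The question was whether Lars2 moved with the other 4 transcripts in every cell class or in fibroblasts alone.

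The study asked how loss of Ndrg2 in dendritic cells (DCs) changes these cells and the wounds treated with them. A first set of 3 libraries held DCs grown from the bone marrow of C57BL/6J mice: untreated DCs, DCs given vitamin D3 at day 7 of culture for 24 h at 1e-06 M (VD3 DCs), and DCs in which Ndrg2 was cut with CRISPR (Ndrg2-KO DCs). The second set of 3 libraries held cells of splinted excisional wounds on the backs of C57BL/6J wild-type mice aged 6 weeks, explanted on day 10, with 5 mice per group. How many of them a library holds is not given in the sources used here. The wounds carried hydrogels seeded with control DCs (control DC wounds), with Ndrg2-knockout DCs (Ndrg2-KO DC wounds) or with no cells (blank hydrogel wounds). The labels call the control DCs untreated, whereas the study's methods describe non-targeting guides for DCs used in wounds. The host mice of all 3 wound groups carried intact Ndrg2, and the knockout was confined to the seeded DCs.

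Each condition was 1 library, so no test between conditions was possible, and every interval below is an exact 95% interval for counting error only. Cells were kept when 300 or more genes were detected, the total was below 100000 UMIs and mitochondrial UMIs made up less than 10%. They numbered 7257 to 8825 per DC library, with 116461484 to 143627482 UMIs, and 1948 to 5681 per wound library, with 29675507 to 49240341 UMIs. Ndrg2 itself was at 4.62 CPM (UMIs of the gene per 1000000 UMIs of the cells) in untreated DCs, 1.42 CPM in VD3 DCs and 0.884 CPM in Ndrg2-KO DCs. Any pair of libraries shared 2 to 25 cell barcodes.

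Lars2 encodes the mitochondrial leucyl-tRNA synthetase, the nuclear-encoded enzyme that charges mitochondrial tRNA with leucine for the translation of proteins encoded in mitochondrial DNA. Ribosomal RNA is transcribed by RNA polymerase I from repeated genes in the nucleolus and as a rule carries no poly(A) tail. Libraries primed on poly(A) are therefore meant to leave it out, yet annotated transcripts that overlap ribosomal DNA sequence can still collect such reads.

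The annotation placed 3 of the 5 members next to each other. In GENCODE M21 on GRCm38, Gm26917, a lincRNA, spans chr17:39843013-39846341 on the plus strand, and Gm42418, also a lincRNA, spans chr17:39846958-39848788 on the plus strand, with 616 bases between them. AY036118, a lincRNA on the minus strand, spans chr17:39847113-39848035, so all 923 of its bases lie inside Gm42418 on the opposite strand. An annotated ribosomal RNA gene, CT010467.1, runs on the minus strand over chr17:39846353-39848827 and covers all 1831 bases of Gm42418 and all of AY036118. Gm26917 and Gm15564 did not overlap it. In transcript sequence, Gm42418-201 matched CT010467.1-201 at 100% over 1244 bases on the opposite strand. AY036118-201 matched it at 100% over 923 bases on the same strand. No member was aligned to a ribosomal RNA sequence from outside this annotation. The name ribosomal RNA-like therefore rests on the list and on this overlap and match. Whether the counting used strand is not given in the sources used here, so the split of counts between Gm42418 and AY036118 is uncertain. Gm42418 and AY036118 are shown over the same 60 bases, chr17:39847976-39848035, where AY036118 begins, since each is the reverse complement of the other there. The first 60 bases of Gm26917, chr17:39843013-39843072, follow for comparison.
Gm42418 (plus strand): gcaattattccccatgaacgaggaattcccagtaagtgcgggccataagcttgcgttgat
AY036118 (minus strand): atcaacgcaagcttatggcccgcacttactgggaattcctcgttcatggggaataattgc
Gm26917 (plus strand): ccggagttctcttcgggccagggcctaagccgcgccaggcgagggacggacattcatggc

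Lars2 and Gm15564 lie on other chromosomes. Lars2, protein-coding, spans chr9:123366927-123462666 on the plus strand, and Gm15564, annotated as an antisense RNA, spans chr16:35966752-35983230 on the minus strand. Their transcripts nevertheless share a stretch: bases 3278 to 3349 of Lars2-201, in the 3′ UTR in exon 21 of 21 (chr9:123462048-123462119), matched bases 179 to 250 of Gm15564-202 in the same orientation, with 71 of 72 bases identical. The substitution was A53T, with the Lars2 base first and positions counted from 1 at the 5′ end of the stretch. The 30 bases around it are shown because they are the only sequence found to link Lars2 to another member, with the differing base in capitals. They lie at chr9:123462085-123462114 in Lars2 and at chr16:35981730-35981759 in Gm15564.
Lars2: ggaacgtgagctgggAttagaccgtcgtga
Gm15564: ggaacgtgagctgggTttagaccgtcgtga
Reads lying wholly within this stretch could be told apart between both genes by that base alone. In Gm15564-202 the stretch runs from exon 1 into exon 2. A further gene, AA474408, also aligned there, at 87.8% identity over 82 aligned bases with Gm15564-202 and 80.1% over 196 with Lars2-201. Reads there need therefore not come from either member. No other pair of members, apart from Gm42418 and AY036118, shared an aligned stretch of at least 40 bases at an e-value of 1e-06 or less. Guanine and cytosine made up 69.1% of Gm26917-202, 60.2% of Gm42418-201, 54.4% of AY036118-201 and 51.2% of Lars2-201, against a median of 49.2% over 141767 annotated transcripts.

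The wound libraries held far more of 4 of the members than the DC libraries did. Levels are CPM, not scaled by transcript length, so members are set against each other only as UMIs. Gm42418 was the gene with the most UMIs in each wound library, at 141105 CPM in control DC wounds, 86084 CPM in Ndrg2-KO DC wounds and 133922 CPM in blank hydrogel wounds. In those wounds it thus took 14.1%, 8.61% and 13.4% of all UMIs. In the cultures it stood at 814 CPM in untreated DCs, 831 CPM in VD3 DCs and 494 CPM in Ndrg2-KO DCs. Gm42418 was therefore the bulk of the ribosomal RNA-like sum, the summed UMIs of the 4 members other than Lars2, which reached 142617, 87743 and 135716 CPM in the same wounds.

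Lars2 followed this split between cultures and wounds. It was at 23.1 CPM in untreated DCs, 22.4 CPM in VD3 DCs and 18.7 CPM in Ndrg2-KO DCs. It was at 1741 CPM in control DC wounds, 1279 CPM in Ndrg2-KO DC wounds and 1722 CPM in blank hydrogel wounds. By rank among the genes of a library, Lars2 was 55th, 114th and 57th in these wounds and between 4749th and 5531st in the cultures. The other mitochondrial aminoacyl-tRNA synthetases, 16 genes whose enzymes charge other mitochondrial tRNAs, did not share this split: summed, they were at 115 to 145 CPM in the cultures and 74.1 to 86.0 CPM in the wounds. Cultures and wounds also differed in tissue and in the Cell Ranger version named in the file headers, 3.1.0 against 6.0.0, so tissue and processing cannot be told apart here.

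Gm15564 was close to absent from the cultures. It had 0 UMIs in untreated DCs, which allows up to 0.0226 CPM at 3 counts, 1 UMI in VD3 DCs and 30 UMIs in Ndrg2-KO DCs, or 0.209 CPM. In the wounds it was at 52.5 CPM with control DCs, 24.1 CPM with Ndrg2-KO DCs and 45.01 CPM with blank hydrogels. Expressed against Lars2, this was 30.1, 18.8 and 26.1 Gm15564 UMIs per 1000 Lars2 UMIs. AY036118 was at 128 CPM in untreated DCs, 152 CPM in VD3 DCs and 52.1 CPM in Ndrg2-KO DCs. It was at 1267 CPM in control DC wounds, 1516 CPM in Ndrg2-KO DC wounds and 1613 CPM in blank hydrogel wounds. Its ratio to the overlapping Gm42418 differed between the sets, at 105 to 183 AY036118 UMIs per 1000 Gm42418 UMIs in cultures and 8.98 to 17.6 in wounds. Gm26917 ranged from 59.5 to 91.6 CPM in cultures and from 119 to 192 CPM in wounds. The 1% of cells with the most Gm26917 UMIs held 18.3% to 50.2% of its UMIs in a library, so its class values rest on few cells. For Gm42418 that share was 3.94% to 5.49%.

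**Figure D1:**
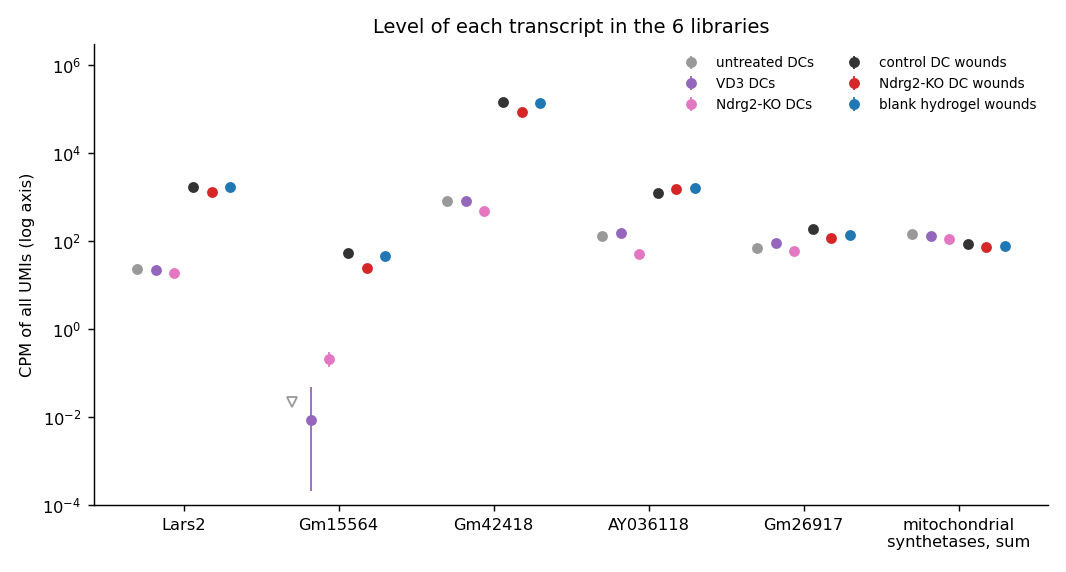
Points give the CPM of each member, and of the summed mitochondrial aminoacyl-tRNA synthetases without Lars2, in the kept cells of the 6 libraries on a log axis, with bars for the exact 95% counting interval, which are mostly shorter than the points. The open triangle marks Gm15564 in untreated DCs, with 0 UMIs, at the level 3 counts would give. Gm42418 lies at 86084 to 141105 CPM in wounds and 494 to 831 CPM in cultures, while the summed synthetases lie at 74.1 to 145 CPM in all 6 libraries.

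Within the wounds the members were compared in cell classes made by clustering without the 5 members and named from marker genes. All 10 fibroblast markers, among them the collagen genes Col1a1, Col1a2 and Col3a1 and the proteoglycan genes Dcn and Lum, marked the fibroblast-like cluster. Classes with at least 50 cells in each wound library were fibroblast-like, macrophage/monocyte-like and neutrophil-like cells and the clusters 4, 6 and 9. Cluster 9 carried 7 endothelial markers, but at resolution 1.0 only 27, 18 and 10 of its 63, 82 and 51 cells in control, Ndrg2-KO and blank hydrogel wounds were endothelial-like. Another 35, 61 and 40 were Schwann-like, in a cluster also led by muscle and fat genes, so cluster 9 is a mixture and is called by its number. Neutrophil-like cells were clusters 0 and 2, and cluster 2, led by inflammatory genes such as Il1a and Ccl3, made up 14.5%, 32.9% and 17.0% of them in the same order. Cluster 4 was led by Mmp12, Mmp13 and Arg1. Cluster 6 was led by granzyme genes and Il17a and carried 8 of the T cell markers.

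Lars2 differed by class in a like order in the 3 wound libraries. In control DC wounds it ran from 4381 CPM in cluster 6 and 3860 CPM in neutrophil-like cells through 2775 CPM in cluster 9, 1571 CPM in fibroblast-like and 1390 CPM in macrophage/monocyte-like cells to 1156 CPM in cluster 4. In Ndrg2-KO DC wounds it ran from 2748 CPM in neutrophil-like cells and 2640 CPM in cluster 6, whose intervals overlapped, through 2211 CPM in cluster 9, 1019 CPM in cluster 4 and 915 CPM in macrophage/monocyte-like cells to 590 CPM in fibroblast-like cells. In blank hydrogel wounds the order was cluster 6 at 3738 CPM, neutrophil-like at 3351, cluster 9 at 2896, fibroblast-like at 1385, macrophage/monocyte-like at 1294 and cluster 4 at 1098 CPM. Fibroblast-like cells thus took the fourth place of these 6 classes in both other wounds and the lowest place in Ndrg2-KO DC wounds. Dendritic cell-like cells of that library, with 82 cells, stood at 580 CPM, and their interval overlapped that of its fibroblast-like cells.

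Between Ndrg2-KO DC wounds and control DC wounds, Lars2 and the ribosomal RNA-like sum were both lower in all 3 named classes and in clusters 4, 6 and 9. Over all kept cells, Lars2 differed by -0.44 on the log2 scale (interval -0.46 to -0.43) and the sum by -0.70 (-0.70 to -0.70), while the median over 10847 genes was -0.13. As the mean over cells of each cell's CPM, which weights shallow cells like deep ones, Lars2 had -0.21 and the sum -0.53. Of the 5 members, 3 were lower by more than 1.5-fold over all kept cells and none higher, beside 22.5% of all genes past that fold in either direction. The members lower by that much were Gm42418 at -0.71, Gm15564 at -1.12 and Gm26917 at -0.69, and AY036118 stood at 0.26. By class, AY036118 had -0.25 in fibroblast-like, -0.01 in macrophage/monocyte-like and -0.11 in neutrophil-like cells. It had 0.31 in cluster 4, -0.26 in cluster 6 and -0.0006 in cluster 9. Ratios over all kept cells also hold changes in class make-up. Neutrophil-like cells were 462 of 1948 in control and 2901 of 5681 in Ndrg2-KO DC wounds. Without the control cell of 603 Gm26917 UMIs the control level was 172 CPM in place of 192 and the ratio -0.52, within the fold. Without the Ndrg2-KO cell of 808 UMIs the ratio was -0.90. With both left out, Gm26917 was at 172 CPM in control and 103 CPM in Ndrg2-KO DC wounds. Its call thus depends on which single cells are kept.

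Fibroblast-like cells showed the widest gap among the named classes. Lars2 was at 1571 CPM in control DC wounds (470 cells), 590 CPM in Ndrg2-KO DC wounds (463 cells) and 1385 CPM in blank hydrogel wounds (323 cells). The sum was at 120018, 51154 and 108837 CPM in the same order. Ndrg2-KO DC wounds were thus the low library for both, and the other 2 lay close together. The log2 ratio of Ndrg2-KO to control DC wounds was -1.41 for Lars2 (-1.45 to -1.37) and -1.23 for the sum (-1.23 to -1.23), where the median of 7974 genes was 0.08. Gm15564 fell furthest, by 2.83 on the log2 scale, from 42.1 to 5.93 CPM. Gm42418 fell by 1.24, while AY036118 at -0.25 and Gm26917 at -0.38 lay within the 1.5-fold range. In these cells 3 of the 5 members were lower by more than 1.5-fold, beside 2.76% of all genes. At resolution 1.0 the class divided into a larger cluster led by C1qtnf3 and Postn, with 72.3%, 55.1% and 68.1% of its cells in control, Ndrg2-KO and blank hydrogel wounds, and a second led by Myoc and Inmt, with 26.8%, 44.9% and 31.0%. Lars2 was lower in Ndrg2-KO than in control DC wounds within each, with a log2 ratio of -1.26 (-1.31 to -1.21) in the first and -1.93 (-1.99 to -1.86) in the second, where the sum had -1.13 and -1.54. These parts were compared after the data were seen. In bulk sums of a class, fewer cells of a subtype and less RNA per cell cannot be told apart.

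The other classes moved in the same direction by less. In macrophage/monocyte-like cells Lars2 was at 1390 CPM with control DCs, 915 with Ndrg2-KO DCs and 1294 with blank hydrogels, a log2 ratio of -0.60 (-0.64 to -0.56) between the first pair, where the sum had -0.85. There 4 of the 5 members were lower by more than 1.5-fold, beside 3.11% of all genes, and AY036118, at -0.01, was the exception. The control cell of 603 Gm26917 UMIs lay in this class, which held 1725, and the gene's level there was 157 CPM without that cell in place of 241. In neutrophil-like cells Lars2 was at 3860, 2748 and 3351 CPM in the same order, a log2 ratio of -0.49 (-0.53 to -0.45), where the sum had -0.43. In its clusters 0 and 2 taken alone Lars2 had -0.38 and -0.53. Here 2 of 5 members, Gm15564 and Gm26917, passed the fold, beside 8.39% of all genes. For Gm26917 this rests on single cells. The ratio turned from -1.62 to 0.24 without 1 control cell with 114 UMIs, and to -2.27 without 1 Ndrg2-KO cell with 110 UMIs. In cluster 9 Lars2 was at 2775, 2211 and 2896 CPM, a log2 ratio of -0.33 (-0.42 to -0.24) where the sum had -0.44. Its Schwann-like cells had Lars2 at 3334, 3118 and 4071 CPM and its endothelial-like cells at 2357, 1510 and 1633 CPM. Gm15564 and Gm26917 passed the fold in cluster 9, beside 12.1% of all genes. Gm15564 had 21 and 49 UMIs there in Ndrg2-KO and control DC wounds, below the 200 UMIs asked of the other genes, and an interval of -1.59 to -0.02. The other clusters gave Lars2 -0.18 and the sum -0.73 in cluster 4, and -0.73 and -0.70 in cluster 6.

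Lars2 was therefore lower beside the ribosomal RNA-like sum in every class counted, not in fibroblast-like cells alone, while the interval of its log2 ratio in fibroblast-like cells did not overlap that of any of the other 5 classes. With 1 library per condition, whether fibroblast-like cells differ from other classes in this could not be tested.

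Blank hydrogel wounds and control DC wounds, which share that control library with the comparison above, lay close together. Over all kept cells the log2 ratio of blank to control was -0.02 for Lars2 and -0.07 for the sum, and 0 of 5 members passed 1.5-fold, beside 18.0% of all genes. By class, Lars2 had -0.18 and the sum -0.14 in fibroblast-like cells, -0.10 and -0.05 in macrophage/monocyte-like cells, and -0.20 and -0.27 in neutrophil-like cells. Gm15564 and Gm26917 nevertheless stood lower in some classes. In neutrophil-like cells 2 of 5 members were lower by more than 1.5-fold, beside 3.35% of all genes: Gm15564 at 124 CPM in control and 62.6 CPM in blank hydrogel wounds, and Gm26917 at 96.1 and 5.94 CPM. The control value of Gm26917 again holds the cell of 114 UMIs, without which it was 26.4 CPM and the log2 ratio -2.15 in place of -4.02. Macrophage/monocyte-like cells had 1 such member, Gm26917 at -0.70, beside 2.39% of all genes. Its ratio was -0.08, within the fold, without the control cell of 603 UMIs, and -0.88 without the blank hydrogel cell of 152 UMIs. Cluster 9 had 1, Gm26917 at -2.40, beside 9.17%, and cluster 6 had 1, Gm15564 at -0.81, beside 4.57%. Gm26917 in neutrophil-like cells, with 35 and 157 UMIs in blank and control wounds, and Gm15564 in cluster 6, with 51 and 101 UMIs, were below the 200 UMIs asked of the other genes. The mixed cluster 9 was the exception to the shared sign, with 0.06 for Lars2 and -0.05 for the sum. At resolution 1.0, where its parts had too few cells to be counted, Lars2 and the sum shared a sign in 3 of 3 named classes. In cluster 9 a single cell of the blank hydrogel wounds held the most Lars2 UMIs of the library, 239, and without it Lars2 was at 2605 CPM in place of 2896, below the 2775 CPM of control DC wounds. AY036118 was higher by more than 1.5-fold in cluster 9, at 1.64, but 1871 of its 2666 UMIs there lay in 1 cell, and without that cell the ratio was -0.10.

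**Figure D2:**
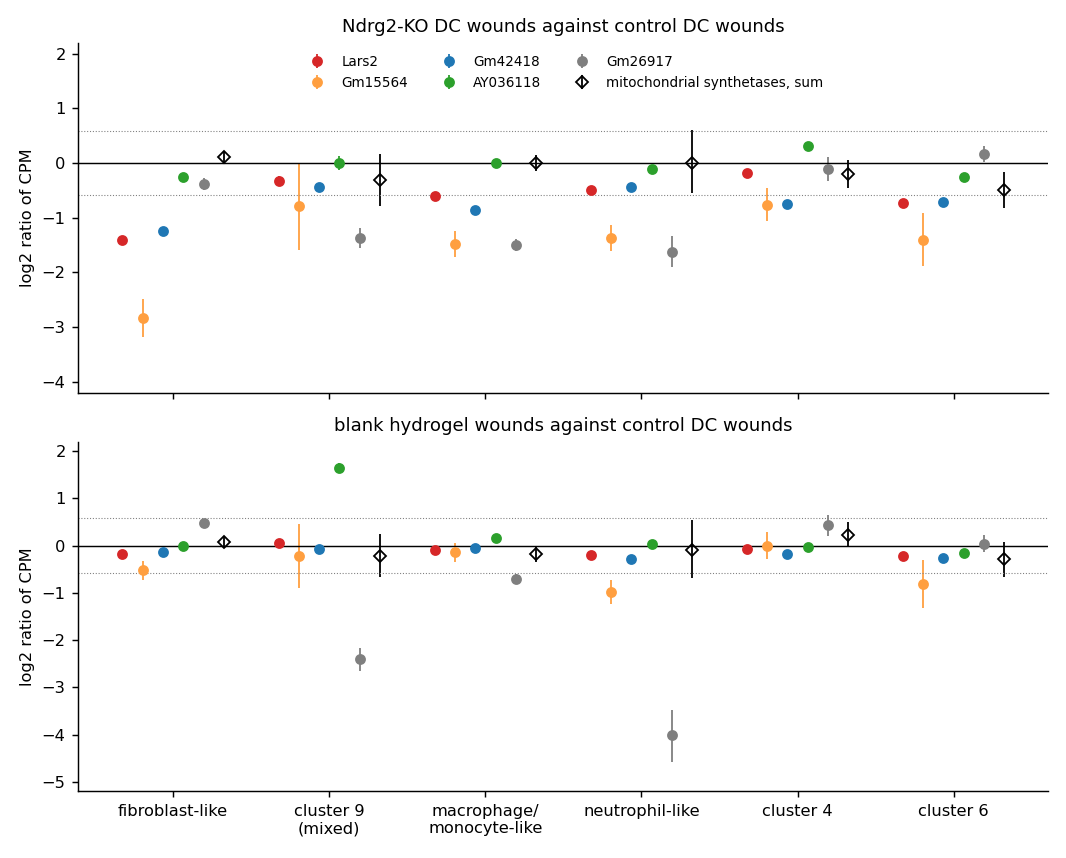
Points give the log2 ratio of CPM between Ndrg2-KO and control DC wounds (top) and between blank hydrogel and control DC wounds (bottom) in 6 cell classes, for each member and the summed mitochondrial aminoacyl-tRNA synthetases, with exact 95% counting intervals and dotted lines at 1.5-fold. In the top panel Lars2 and Gm42418 lie below 0 in every class and lowest in fibroblast-like cells, at -1.41 and -1.24, where the synthetases lie at 0.11, or -0.01 with the 5 members left out of the totals.

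Per cell, the share of UMIs in the ribosomal RNA-like sum was shifted as a whole in fibroblast-like cells. The median share was 12.5% in control DC wounds, 5.06% in Ndrg2-KO DC wounds and 11.7% in blank hydrogel wounds. The 90th percentile in Ndrg2-KO DC wounds, 9.30%, lay just above the 25th percentile in control DC wounds, 8.98%. In macrophage/monocyte-like cells the medians were 17.4%, 10.1% and 16.7%, and in neutrophil-like cells 14.6%, 11.4% and 12.7%. The low shares of fibroblast-like cells in Ndrg2-KO DC wounds were thus spread over most cells of the class. The mixed cluster 9 had the widest spread of these classes, from 1.08% at the 10th percentile to 43.8% at the 90th in control DC wounds. When each cell was thinned to 1000 UMIs, Lars2 was seen in 76.4% of fibroblast-like cells of control DC wounds, 43.8% in Ndrg2-KO DC wounds and 71.2% in blank hydrogel wounds. In control and Ndrg2-KO DC wounds it was then seen in 56.5% and 57.8% of cluster 4, which was not lower, and in 92.2% and 88.5% of cluster 6. Before thinning, Lars2 was seen in 96.9%, 97.9% and 97.2% of all kept cells of these wounds.

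**Figure D3:**
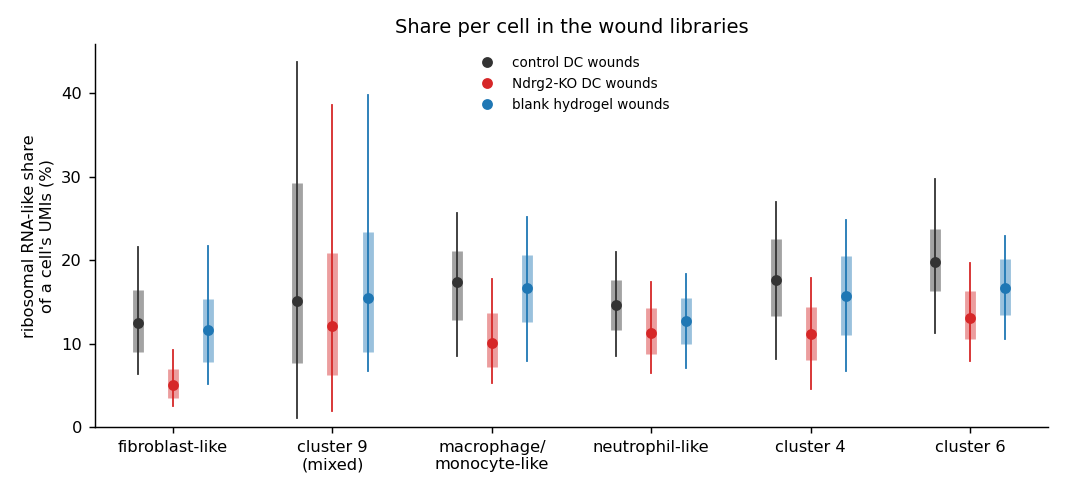
For each class and wound library, the point is the median over cells of the percentage of a cell's UMIs in the ribosomal RNA-like sum, the thick bar runs from the 25th to the 75th percentile and the thin line from the 10th to the 90th. In fibroblast-like cells the median is 5.06% in Ndrg2-KO DC wounds against 12.5% and 11.7% in the other wounds.

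Lars2 also rose with this share from cell to cell inside each class of each library. Cells of a class were divided into quintiles by their ribosomal RNA-like share, which Lars2 does not enter, and the UMIs of each quintile were summed. In fibroblast-like cells Lars2 was at 708 CPM in the lowest and 2652 CPM in the highest quintile of control DC wounds. In Ndrg2-KO DC wounds it was at 272 and 1127 CPM, and in blank hydrogel wounds at 626 and 2616 CPM. The highest quintile of the Ndrg2-KO DC wounds, with 10.4% of its UMIs in the sum, thus lay between the lowest and the highest quintiles of the others. Over the 3 wounds the log2 ratio of highest to lowest quintile was 1.96 (1.91 to 2.0), and 2.18 when the 5 members were left out of the totals. Lars2 was higher in the highest quintile, with an interval above 0, in 22 of 22 combinations of class and wound library, by 1.17 to 4.83 (median 2.02). The same held in 13 of 13 combinations in the cultures, by 0.85 to 2.08 (median 1.40). These quintiles are cells of 1 library each and no replicates.

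The gene's functional relatives did not follow the share in fibroblast-like cells. With the 5 members left out of the totals, the other mitochondrial aminoacyl-tRNA synthetases together were at 100 CPM in the lowest and 101 CPM in the highest quintile over all wounds, where Lars2 went from 565 to 2556 CPM. Malat1, an abundant RNA kept in the nucleus, went from 10589 to 13306 CPM on the same totals. Cell depth moved with the quintiles: the median per cell fell from 43992 UMIs in the lowest to 24199 UMIs in the highest quintile of fibroblast-like cells in control DC wounds. With each cell thinned to 1000 UMIs before ranking, the log2 ratio of highest to lowest quintile over the 3 wounds was 1.94 (1.68 to 2.2), against 1.96 unthinned. Over whole libraries, Lars2 was lower in deeper cells, at 4010 CPM in cells of 1000 to 3000 UMIs and 1128 CPM in cells of 30000 to 100000 UMIs of control DC wounds.

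**Figure D4:**
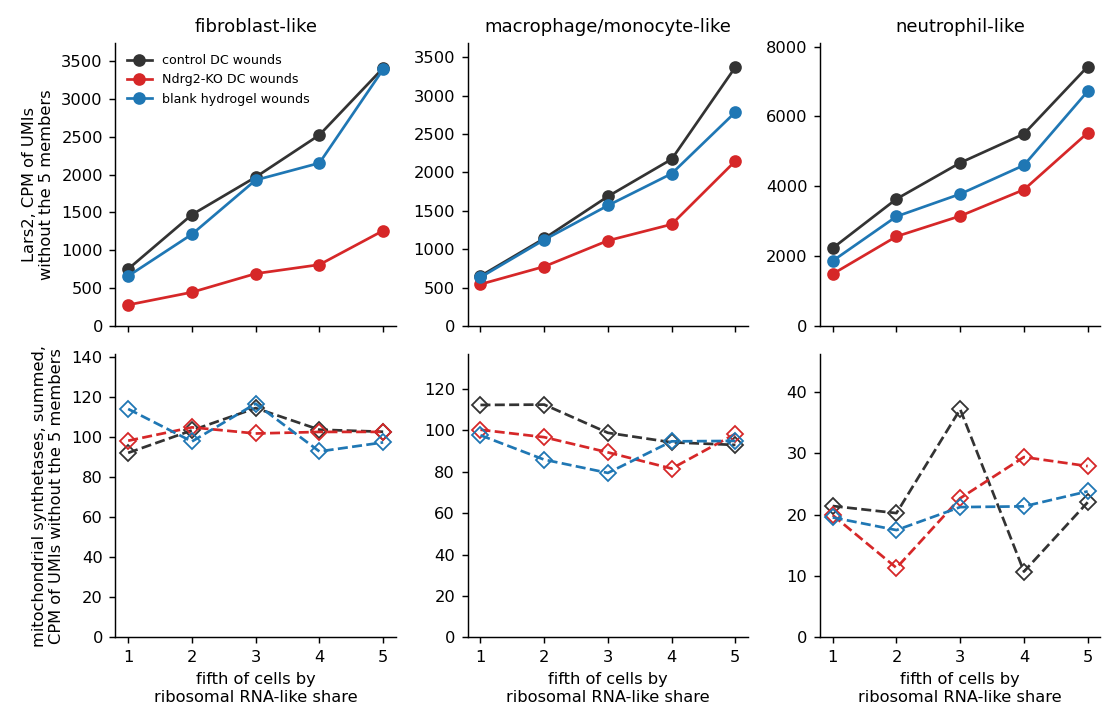
Cells of 3 classes were ranked by ribosomal RNA-like share within each wound library and divided into 5 equal groups (horizontal axis, lowest to highest). The upper panels give Lars2 and the lower panels the other mitochondrial aminoacyl-tRNA synthetases, summed, both as CPM of UMIs without the 5 members. In fibroblast-like cells Lars2 goes from 753 to 3409 CPM in control DC wounds and from 279 to 1260 CPM in Ndrg2-KO DC wounds, and the synthetases from 92.0 to 103 and from 98.1 to 102 CPM.

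The low Lars2 of fibroblast-like cells in Ndrg2-KO DC wounds was also seen in cells of like depth. Among cells of 10000 to 30000 UMIs it was at 2281 CPM in control DC wounds and 754 CPM in Ndrg2-KO DC wounds, a log2 ratio of -1.60. Among cells of 30000 to 100000 UMIs it was at 1207 and 388 CPM, a ratio of -1.64. Among cells with 5% to 10% of their UMIs in the ribosomal RNA-like sum it was at 974 and 809 CPM, a ratio of -0.27. Among cells with 10% to 15% it was at 1745 and 1235 CPM, a ratio of -0.50, with 22 cells in Ndrg2-KO DC wounds. These share ranges select on the sum itself, which Lars2 followed from cell to cell, so smaller ratios there are no separate result. All 4 ranges were chosen after the data were seen.

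The ratio of Lars2 to Gm42418 differed between classes of the wounds. Per 1000 Gm42418 UMIs, fibroblast-like cells held 13.2 Lars2 UMIs in control DC wounds, 11.7 in Ndrg2-KO DC wounds and 12.8 in blank hydrogel wounds. Neutrophil-like cells held 25.8, 24.9 and 27.1, cluster 9 held 20.9, 22.6 and 22.9, and cluster 6 held 22.6, 22.3 and 23.3. Macrophage/monocyte-like cells held 8.07, 9.63 and 7.76 and cluster 4 held 6.45, 9.52 and 6.96, so that both stood higher in Ndrg2-KO DC wounds and cluster 4 came into the range of the macrophage/monocyte-like cells. In the cultures the ratio was 28.3 in untreated DCs, 27.0 in VD3 DCs and 37.8 in Ndrg2-KO DCs. Mature DC-like cells held 21.02, 22 and 36.7 in the same order, and proliferating cells 34.8, 33.9 and 42.1. In the cultures the ratio thus differed between libraries within a class as well.

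**Figure D5:**
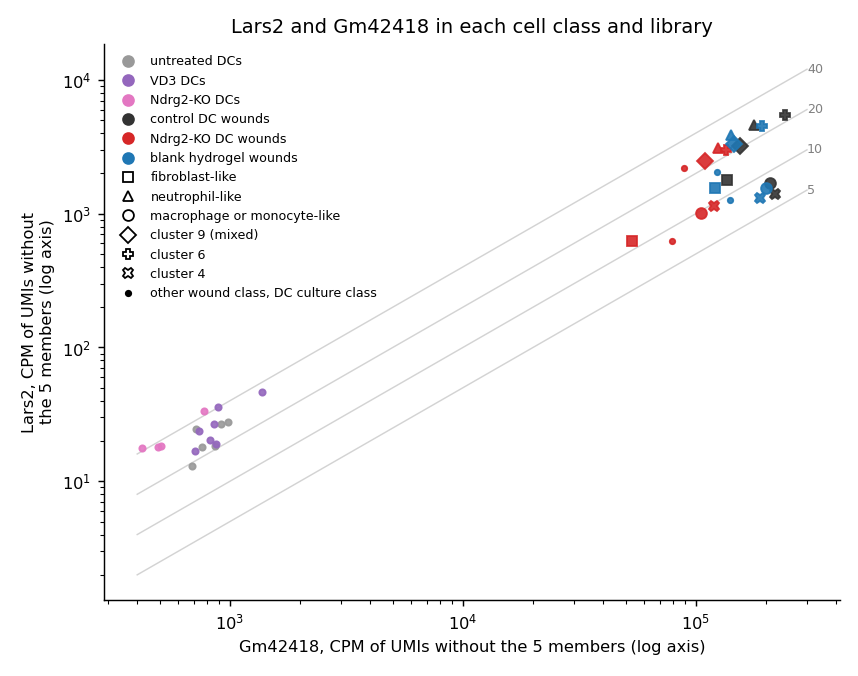
Each point is the sum of 1 cell class in 1 library, with Gm42418 on the horizontal and Lars2 on the vertical axis, both as CPM of UMIs without the 5 members on log axes. Grey lines mark 5, 10, 20 and 40 Lars2 UMIs per 1000 Gm42418 UMIs. Wound classes lie far to the upper right of the culture classes, and within the wounds fibroblast-like cells lie at 11.7 to 13.2 per 1000 and cluster 4 spreads from 6.45 to 9.52.

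In the DC cultures, Ndrg2-KO DCs were the low library for Gm42418 and AY036118. The knockout DCs had also been through nucleofection, the electrical delivery of Cas9 and guides, and the library they are compared with is labelled untreated. Loss of Ndrg2 and this handling cannot be told apart here. Between VD3 DCs and untreated DCs, Lars2 had a log2 ratio of -0.04 (-0.12 to 0.04) and the sum 0.08, and 0 of 4 members with a ratio passed 1.5-fold, beside 22.4% of all genes. No direction is given for Lars2 there, since it turned to 0.04 with median-ratio scaling and to 0.05 without mitochondrial and ribosomal protein genes in the totals. Between Ndrg2-KO DCs and untreated DCs, which share that untreated library with the comparison before, Lars2 had -0.31 (-0.38 to -0.23) and the sum -0.74. Of 4 members with a ratio 2 passed the fold, Gm42418 at -0.72 and AY036118 at -1.30, both lower, beside 33.0% of all genes past it in either direction. With cells under 5% mitochondrial UMIs alone, Lars2 had -0.14 (-0.30 to 0.01) and the sum -0.51.

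Lars2 did not keep step with the sum in every class of the cultures. In mature DC-like cells of Ndrg2-KO DCs and untreated DCs it was at 18.0 and 18.2 CPM, a log2 ratio of -0.01 (-0.18 to 0.16), while the sum was at 651 and 1107 CPM, a ratio of -0.77. In proliferating cells Lars2 was at 17.6 and 24.7 CPM, a ratio of -0.49, and the sum again had -0.77. Clusters that held these classes were mostly of 1 library each, cluster 5 and cluster 10 in Ndrg2-KO DCs and cluster 2 and cluster 6 in untreated DCs. In VD3 DCs, proliferating cells were mostly the shallow cluster 3, with a median of 1858 UMIs per cell against 22518 in untreated DCs, and had Lars2 at 46.3 CPM against 24.7. All 4 members with a ratio were higher there by more than 1.5-fold, beside 8.05% of all genes, with AY036118 at 2.12 and the sum at 1.13. The median over 9614 genes there was -0.59. Mitochondrial transcripts went the other way from the members, at 9558 CPM in VD3 DCs against 54963 CPM in untreated DCs. Malat1, at 895 against 5933 CPM, and Neat1, at 35.9 against 238 CPM, were lower as well. The part of depth and of RNA quality in these differences was not tested. In granulocyte-like cells Lars2 was at 23.8 CPM with vitamin D3 and 27.9 CPM without it, or -0.23 on the log2 scale (-0.45 to -0.0029), and the sum had -0.38. That class was made of different clusters in both libraries: the shallow cluster 4 held 924 of its 1029 cells in untreated DCs and 1105 of 2188 in VD3 DCs, the rest being the deeper cluster 7, and the median depth was 3399 against 10111 UMIs. Within cluster 4 Lars2 had 0.20 (-0.12 to 0.52) and within cluster 7 0.38 (-0.06 to 0.84), and the sum 0.03 and 0.29, so no direction is given for this class. At resolution 1.0, most of these VD3 cells fell into a shallow unnamed cluster, with 1006 cells of that library, or a cluster with all 6 proliferation markers, with 900, while the granulocyte-like cluster held 295.

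Fixed lists of related genes were counted beside the members. Over all kept cells of Ndrg2-KO against control DC wounds, 12 of the 16 other mitochondrial aminoacyl-tRNA synthetases had enough UMIs, of which 3 were lower by more than 1.5-fold, with a median log2 ratio of -0.28. Their largest fall was Hars2, the mitochondrial enzyme for histidine, at -0.73. Of 20 cytosolic aminoacyl-tRNA synthetases, which charge tRNA for translation in the cytosol, 0 were higher and 2 lower. Of 26 genes of ribosomal RNA synthesis and processing, 0 were higher and 8 lower, the largest fall being Nop58, a core protein of box C/D small nucleolar ribonucleoproteins, at -0.86. Of 81 cytosolic ribosomal protein genes 1 was lower, of 13 mitochondrial transcripts 0 passed the fold, and of 7 nuclear-retained RNAs 2 were lower, with Meg3 at -1.26. Of 2 further transcripts that may hold repeats, 0 passed it. These counts stand against the same 22.5% of all genes. They are over all kept cells, whose class make-up differed. Fibroblast-like cells were 470 of 1948 in control and 463 of 5681 in Ndrg2-KO DC wounds, and neutrophil-like cells were 462 and 2901. Class make-up and level within a class cannot be told apart in these counts.

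In fibroblast-like cells, 0 genes of these lists were past 1.5-fold in this comparison, beside 12.3% of all genes in either direction. Enough UMIs were there for 4 of 16 mitochondrial and 20 of 20 cytosolic synthetases, 23 of 28 genes of ribosomal RNA synthesis, 81 of 83 ribosomal proteins, 13 of 13 mitochondrial transcripts, 7 of 7 nuclear-retained RNAs and 1 of 9 further transcripts. The 4 mitochondrial aminoacyl-tRNA synthetases with enough UMIs there lay between 0.10 for Iars2, the isoleucine enzyme, and 0.33 for Yars2, the tyrosine enzyme. Summed over the list, the synthetases were at 89.6 CPM in control and 96.3 CPM in Ndrg2-KO DC wounds, a log2 ratio of 0.11 (-0.01 to 0.22). The mitochondrial transcripts, summed, had 0.10, the ribosomal proteins 0.38 and Malat1 -0.49. With the 5 members left out of the totals the synthetases turned to -0.01 and Lars2 to -1.52. No direction is therefore given for the synthetases, while Lars2 was lower on both scales.

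The genes most like Lars2 were ranked by Pearson's r of log2 CPM over the class sums. Across 22 class sums of the wounds and 9465 genes these were Gm26532 (0.84), Tnrc6b (0.83), St3gal6 (0.82), Hip1r (0.82) and Inpp1 (0.82). Of the members, Gm15564 came 20th with 0.76, AY036118 154th with 0.57, Gm42418 245th with 0.51 and Gm26917 1745th with 0.10. For Gm42418 the nearest were Tsc22d3 (0.83), Gm15564 (0.82), Ep300 (0.75), Clk4 (0.74) and Safb2 (0.74). Gm15564 was thus the member nearest to both. Across 17 class sums of the cultures and 11071 genes, the nearest to Lars2 were Trappc3 (0.87), Ndufs4 (0.85), Wtap (0.83), Sgta (0.81) and Cdc42ep4 (0.81), with Gm42418 134th at 0.65, Gm26917 598th at 0.54 and AY036118 3352nd at 0.25. Sums of 1 library share its depth and background RNA and are not independent.

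Cells left out by the filters held the members as well. Culture barcodes with under 300 genes, 39 to 352 per library, had Lars2 at 405 CPM in untreated DCs, 410 CPM in VD3 DCs and 784 CPM in Ndrg2-KO DCs, far above the kept cells. Mitochondrial transcripts made up 855866 to 920846 CPM of these barcodes. The 39 barcodes of Ndrg2-KO DCs held 54817 UMIs in all. Culture barcodes with at least 300 genes and 10% or more mitochondrial UMIs had Lars2 at 44.1 and 35.6 CPM in untreated and VD3 DCs. Those of Ndrg2-KO DCs had 17.0 CPM, below the kept cells of that library. Wound barcodes with under 300 genes had Lars2 at 1931 to 2294 CPM and Gm42418 at 69520 to 76850 CPM. Wound barcodes with at least 300 genes and 10% or more mitochondrial UMIs had Lars2 at 5322 to 10805 CPM and Gm42418 at 196763 to 206951 CPM. The latter, 27 to 49 barcodes per wound library, were above the kept cells in each wound library for both genes.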

How the data were processed

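The deposited files held UMI counts per gene and barcode, which the authors made with Cell Ranger. Per the file headers, its version was 3.1.0 in DC and 6.0.0 in wound matrices. The processing notes also name Seurat 3.1.1 and mm9, whereas the methods name mm10, so only annotation coordinates are printed. The barcodes as deposited numbered 2711 to 9794 per library. Filters were those given in the report. Cells of each set were clustered without the 5 members in Seurat 5.3.0 (R 4.3.3; 2000 variable genes, 15 principal components, 15 neighbours, Louvain resolution 0.5). A cluster was named from at least 3 markers above 50 CPM and 2-fold over the rest. Scrublet (scanpy 1.11.5) marked at most 0.873% of a library, too few to have worked, so no cells were removed as doublets. UMIs were summed over cells and given as CPM with exact Poisson intervals. Log2 ratios have exact conditional binomial intervals (scipy 1.17.1), checked on simulated data. A gene was counted in a comparison from 200 UMIs over the pair of libraries, also within a class. Transcript sequences of GENCODE M21 were aligned with blastn 2.17.0. Members, lists and alternatives were chosen with earlier results of these data known. The members, the 7 lists and Ndrg2 were named by rule, and from each list the genes with the highest count, largest rise and largest fall could be named. The result of 1 listed gene is not reported here.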

Additional observations from a re-analysis of the deposited data

How the results depend on the processing

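Of 80 values recomputed under other settings, 47 moved, by more than the counting interval of a ratio or over 1.5 times in a count of classes, 33 did not, and 0 called values changed sign. For Lars2 in Ndrg2-KO against control DC wounds (log2 -0.44), the values were -0.40 with all barcodes, -0.40 with at least 300 UMIs in place of 300 genes, -0.42 without the highest 6% of Scrublet scores, -0.54 with the members left out of the totals, -0.32 with median-ratio scaling and -0.21 as the mean of per-cell CPM. The ribosomal RNA-like sum there (-0.70) gave -0.67, -0.67, -0.68, -0.79, -0.57 and -0.53 in the same order, -0.70 under 5% mitochondrial UMIs and -0.70 without mitochondrial and ribosomal protein genes. For blank hydrogel against control DC wounds, Lars2 (-0.02) gave 0.0016 with median-ratio scaling and 0.013 per cell. The sum (-0.07) gave -0.083 with all barcodes, -0.067 under 5% mitochondrial UMIs, -0.063 with at least 300 UMIs, -0.078 without high Scrublet scores, -0.083 without members, -0.084 without mitochondrial and ribosomal protein genes, -0.055 with median-ratio scaling and -0.16 per cell.

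For VD3 against untreated DCs, Lars2 (-0.04) gave 0.16 under 5% mitochondrial UMIs, 0.054 without mitochondrial and ribosomal protein genes, 0.038 with median-ratio scaling and 0.44 per cell. The sum (0.08) gave 0.26, 0.18, 0.16 and 0.28 in the same order and 0.12 with all barcodes. For Ndrg2-KO against untreated DCs, Lars2 (-0.31) gave -0.41 with all barcodes, -0.14 (-0.30 to 0.01) under 5% mitochondrial UMIs, -0.40 without mitochondrial and ribosomal protein genes and -0.45 per cell. The sum (-0.74) gave -0.77, -0.51, -0.84 and -0.93 in the same order, -0.76 without high Scrublet scores and -0.67 with median-ratio scaling. The cause of these shifts was not tested.

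Counted over single clusters, Lars2 and the sum shared a direction in 9 clusters for Ndrg2-KO and 8 for blank hydrogel wounds, in place of 4 and 3 of the 4 classes that the marker rule names, cluster 9 included, because more units were counted. The quintile result (1.96) gave 1.5 with 3 equal groups and 2.18 without members in the totals. At 2-fold in place of 1.5-fold, 8.05%, 5.53%, 9.08% and 15.3% of genes were called in Ndrg2-KO wounds, blank wounds, VD3 DCs and Ndrg2-KO DCs, against 22.5%, 18.0%, 22.4% and 33.0%. The depth, share and single-cell alternatives in the report were chosen after seeing the data. No paired analysis was possible because each group was 1 library and replicate numbers were names only, and for the same reason no replicate could be left out.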
